A study of Mus musculus with 15 samples.

Results

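The cathepsin genes described here were 8 listed members, Ctsa, Ctsb, Ctsc, Ctsd, Ctsh, Ctsk, Ctss and Ctsz, of 22350 protein-coding genes with an annotated start on chromosomes 1 to 19 and X. They were found by symbol in the gene annotation of the mm9 mouse genome, by a list of names and not by a threshold on these libraries, although earlier results of these data were known when the list was made. Each gene was read in the 3 kb centred on its start, and in windows of 3 kb tiled from the start over the gene body and 30 kb on each side. The tiling gave 220 windows, of the 831401 windows of this size that held a tag in the genome.

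Cathepsins are proteases of endosomes and lysosomes that are made as inactive precursors and mature in the acid compartment. Macrophages carry them in large amounts and use them to digest engulfed material and to process antigens, and a few are also secreted. Ctsd encodes an aspartic protease and Ctsa a serine carboxypeptidase that also shields lysosomal glycosidases, whereas Ctsb, Ctsc, Ctsh, Ctsk, Ctss and Ctsz encode cysteine proteases of the papain family. Of the marks measured, monomethylation of histone H3 lysine 4 (H3K4Me1) is found at poised and active enhancers, acetylation of lysine 27 (H3K27Ac) at active enhancers and promoters, and trimethylation of lysine 27 (H3K27Me3) over regions held silent by Polycomb proteins.

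The study followed C10 cells, a GFP-tagged derivative of the mouse HAFTL pre-B cell line, in which every cell at every time carried C/EBPαER, the myeloid transcription factor C/EBPα fused to the hormone-binding part of the estrogen receptor. Adding 100 nM β-estradiol moved the fusion protein into the nucleus and the cells turned into macrophage-like cells, in medium that also held IL-3 and CSF-1, and control cells received 0.1% ethanol, the solvent. ChIP-seq libraries were made with 1 antibody for each of the 3 marks at 0, 3, 12, 24 and 48 hours post-induction (hpi), which gave 15 libraries and 1 library per mark and time. C10 is 1 cell line with a transgene, and how these values would vary between cultures was not measured.

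The libraries held 11041458 to 31557475 mapped tags of 36 bases as deposited. Each position was counted once and the deeper libraries of a mark were reduced by a random draw to its shallowest one, which left 10913733 tags per library for H3K4Me1, 15216488 for H3K27Ac and 15338280 for H3K27Me3, with a mean of 13.1, 18.3 and 18.4 tags per window. A window was called enriched from 27, 34 and 34 tags in these marks, and a difference was called where one library held at least 2 times the tags of the other and at least 20 tags. With 1 library per group no p-value exists, so every interval below is a 95% interval of counting error (exact Poisson for tags, exact conditional binomial for folds) and says nothing of the spread between cultures. The H3K27Ac library of 24 hpi had 80.3% of its tags in enriched windows, and the other H3K27Ac libraries had 65.3% to 73.0%. At known markers the labels of 0 and 48 hpi were met in H3K27Ac, and the other marks gave no such check. In H3K4Me1, 8 pre-B cell starts went from 498 to 533 summed tags, with 0 called. The sum at 8 macrophage starts went from 746 to 753, with 2 higher and 2 lower. In H3K27Me3, 0 of these pre-B cell starts were called, and 1 macrophage start was lower. In H3K27Ac, 8 of 8 pre-B cell starts had lost at least 2-fold by 48 hpi, and their summed tags went from 9980 to 3253, whereas 8 of 8 macrophage starts had gained at least 2-fold, and their sum went from 976 to 3640. Of 4 granulocyte starts 2 were also called higher, Camp from 12 to 1004 tags and Elane from 16 to 63, whereas Mpo and Ltf held 3 to 15 tags at all times, and the sum of the 4 went from 38 to 1075. At the starts of 3 T cell markers the sum stayed between 6 and 16 tags. Since the cells were read in bulk, a mark in more cells and more of the mark per cell cannot be told apart.

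The sequence of the studied Ctsd element and of 3 starts that differ in their course is shown first, from the mm9 genome, each 5′ to 3′ in the direction of its gene. Ctsd has a distal element that the study itself tested with a primer pair, Ctsd-5 and Ctsd-3. The paper also shows this Ctsd site as its example of a de novo enhancer, with profiles of these marks in C10 cells. The behaviour of the element is thus not an independent observation. Both primers matched once on chromosome 7 and enclosed 124 bases at chr7:149589552-149589675, between genes, 15.7 kb before the Ctsd start. The 300 bases centred on it, at chr7:149589463-149589762 on the minus strand, are given with the bases just before the starts of Ctsd and Ctsk, the 2 members whose start gained at least 2-fold in H3K27Ac, and of Ctsb, whose start did not while windows over its body did. Capitals mark matches to TTGCNNAA (the C/EBP pattern), GAGGAAG (the PU.1 pattern), TGANTCA (the AP-1 pattern) and CACGTG (the E-box, which in the form TCACGTGA is the element bound by lysosomal gene regulators), searched on both strands. A match is a stretch of letters and not a measured binding site.
Ctsd-5 primer: tggctccatgagagttcctc
Ctsd-3 primer: caagagccagagacctccag
Ctsd distal element: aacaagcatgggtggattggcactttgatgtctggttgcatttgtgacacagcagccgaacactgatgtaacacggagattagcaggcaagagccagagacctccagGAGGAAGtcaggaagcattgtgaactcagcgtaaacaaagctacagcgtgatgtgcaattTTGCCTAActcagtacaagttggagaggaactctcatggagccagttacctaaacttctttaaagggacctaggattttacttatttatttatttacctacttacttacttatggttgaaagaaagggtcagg
Ctsd, chr7:149573944-149574243: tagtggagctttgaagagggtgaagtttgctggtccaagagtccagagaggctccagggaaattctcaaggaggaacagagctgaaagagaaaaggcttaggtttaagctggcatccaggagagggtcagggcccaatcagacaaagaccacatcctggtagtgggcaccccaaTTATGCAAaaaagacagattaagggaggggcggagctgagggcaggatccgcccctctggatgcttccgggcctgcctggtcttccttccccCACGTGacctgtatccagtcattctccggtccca
Ctsk, chr3:95302908-95303207: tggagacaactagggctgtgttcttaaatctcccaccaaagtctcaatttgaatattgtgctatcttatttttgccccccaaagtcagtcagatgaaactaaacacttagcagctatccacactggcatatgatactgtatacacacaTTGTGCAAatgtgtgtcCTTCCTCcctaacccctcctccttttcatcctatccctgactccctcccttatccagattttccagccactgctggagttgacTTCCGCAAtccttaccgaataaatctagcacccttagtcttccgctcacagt
Ctsb, chr14:63741002-63741301: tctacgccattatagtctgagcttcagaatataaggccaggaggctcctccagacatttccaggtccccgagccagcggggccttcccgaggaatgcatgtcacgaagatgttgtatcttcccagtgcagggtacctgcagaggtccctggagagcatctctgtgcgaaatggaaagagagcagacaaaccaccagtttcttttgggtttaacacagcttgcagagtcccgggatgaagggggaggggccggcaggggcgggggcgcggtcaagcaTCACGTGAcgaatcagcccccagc

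The distal element held 1 match to the C/EBP pattern and 1 to the PU.1 pattern, the latter directly beside the Ctsd-3 primer. The bases before the Ctsk start held 2 C/EBP matches and 1 PU.1 match. Those before the Ctsd start held 1 C/EBP match and 1 E-box, and those before the Ctsb start held the TCACGTGA form of the E-box. Over the 8 members, 2 held a C/EBP match, 3 a PU.1 match, 2 an E-box, 1 the TCACGTGA form and 0 an AP-1 match in this length. Among 22344 protein-coding starts, the same 300 bases held the C/EBP pattern in 11%, the PU.1 pattern in 12.4%, the AP-1 pattern in 7.0%, the E-box in 7.44% and its TCACGTGA form in 1.09%. No matches to these letters were present before the starts of Ctsa, Ctss and Ctsz.

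The first question was which of these genes already had an active start in the pre-B cells, and which gained one during induction. At 0 hpi, 6 of the 8 starts were enriched in both H3K27Ac and H3K4Me1, namely those of Ctsa, Ctsb, Ctsc, Ctsd, Ctss and Ctsz. At 48 hpi the Ctsk start had joined them in both marks, which made 7 of 8, and the Ctsh start had neither. Of all protein-coding starts, 40.6% were enriched in both marks at 0 hpi and 36.7% at 48 hpi. By 48 hpi 2 of the 8 starts, those of Ctsd and Ctsk, had gained at least 2-fold in H3K27Ac and 0 were called lower, where 4.68% and 8.22% of all protein-coding starts were called higher and lower. Over the 8 members the median log2 change was -0.03, with a range from -2.0 at Ctsh to 3.05 at Ctsk, and over the 11212 starts with a mean of at least 20 tags it was -0.25. The members include Ctsh, whose mean is under 20 tags, so the medians are not over sets filtered alike. At 24 hpi the medians were 0.65 over the members and 0.02 over all starts.

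**Figure D1:**
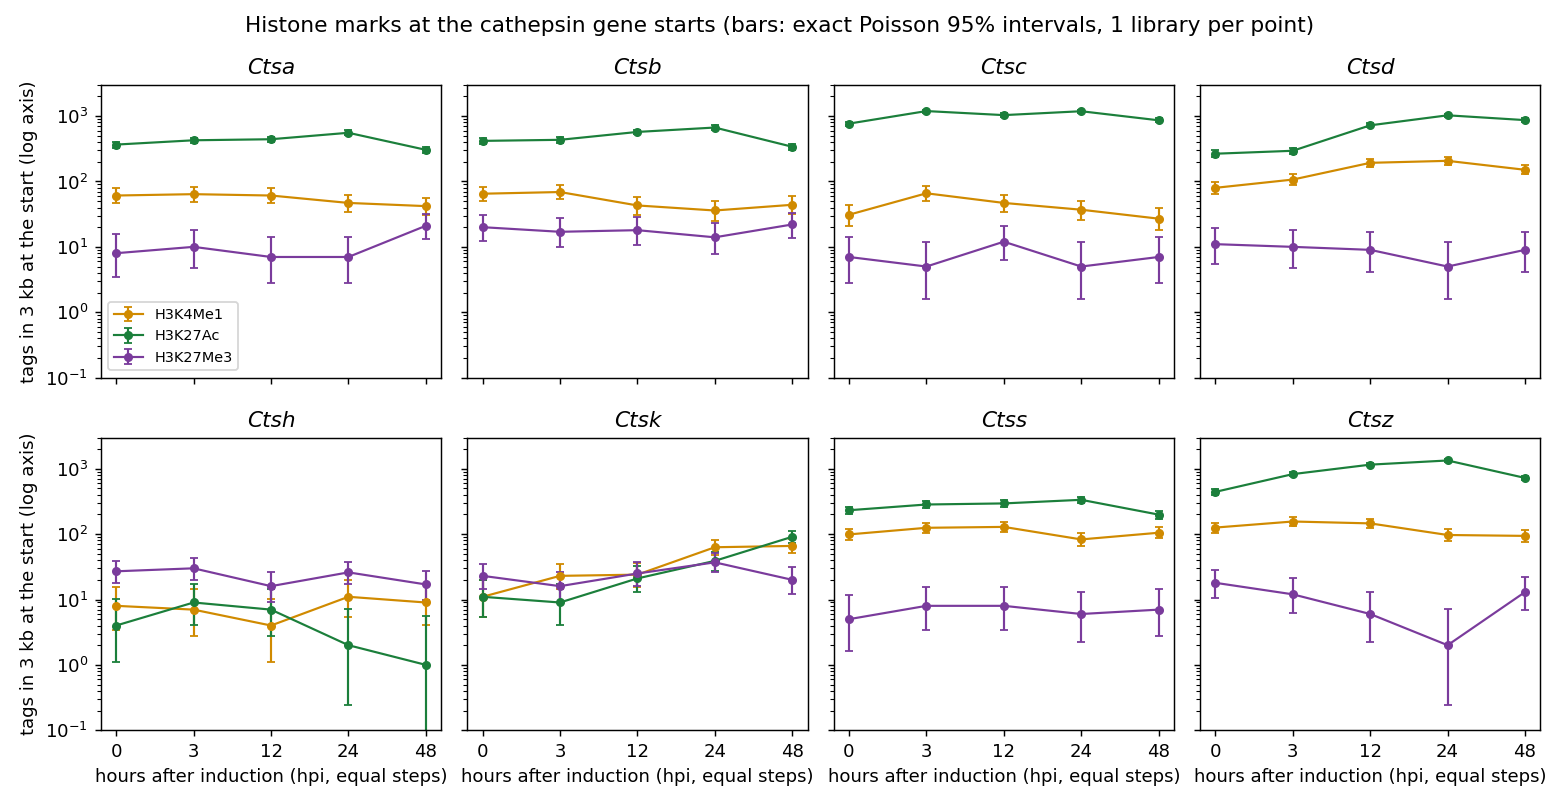
Tags in the 3 kb centred on each start (log axis) at 0, 3, 12, 24 and 48 hpi, with H3K4Me1 in orange, H3K27Ac in green and H3K27Me3 in purple, 1 library per point and exact Poisson 95% intervals as bars. H3K27Ac at Ctsd rose from 266 to 869 tags and at Ctsk from 11 to 91, while Ctsh stayed at 1 to 9 tags.

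Ctsd, the aspartic protease (chr7:149557053-149573943, minus strand), had 266, 295, 723, 1029 and 869 H3K27Ac tags at its start at 0, 3, 12, 24 and 48 hpi. The libraries of 0 and 3 hpi were close to each other, and those of 12 hpi onwards were all higher. The log2 change to 48 hpi was 1.71 (interval 1.51 to 1.91), above 96.0% of all starts with at least 20 tags. H3K4Me1 followed with 80, 107, 193, 207 and 151 tags, a log2 change of 0.92 (0.52 to 1.33) that passed the 2-fold line at 12 and 24 hpi, as did 3.66% and 3.37% of all starts, and not at 48 hpi. Scaled by windows enriched at no time, the change to 48 hpi was 1.5 and was called, and in the central 1 kb it was -0.29 (-1.27 to 0.68). H3K27Me3 was at 5 to 11 tags throughout.

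Most of the gain at Ctsd lay beside the start. In the central 1 kb H3K27Ac was 166, 184, 228, 263 and 189 tags, a log2 change to 48 hpi of 0.19 (-0.12 to 0.50), and in 6 kb it went from 282 to 2070 tags, a change of 2.88. The value of a start window thus depended on its width at this gene.

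Ctsk, a collagen-degrading protease best known from osteoclasts (chr3:95303208-95313284, plus strand), had the largest relative rise of the 8 starts in 3 kb, from a start without marks, while in 6 kb it rose by 2.76 in log2 and Ctsd by 2.88. It had 11, 9, 21, 39 and 91 H3K27Ac tags, a log2 change of 3.05 (2.14 to 4.10), and 11, 23, 24, 63 and 66 H3K4Me1 tags, a change of 2.58 (1.65 to 3.66). In the central 1 kb H3K27Ac went from 6 to 19 tags, a change of 1.66 (0.28 to 3.28), and was not called because it stayed under 20 tags. H3K27Me3 had 23, 16, 25, 37 and 20 tags, enriched at 24 hpi alone. The Ctsk start was the member called higher in H3K4Me1 at 48 hpi, 1 of 8, where 3.32% of all starts were called higher, and 0 of 8 were called lower, against 6.89%. Enrichment in H3K4Me1 was reached at 24 hpi, the time at which H3K27Ac also passed its threshold. Even at 48 hpi the Ctsk start held fewer H3K27Ac tags than any of the 6 starts marked from the beginning. The starts of the osteoclast markers Acp5, Calcr and Atp6v0d2 together had 27 H3K27Ac tags at 0 hpi and 30 at 48 hpi, with 0 of 3 called.

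By the distance between the log2 tag numbers of all 15 libraries, the 3 starts most like that of Ctsk were those of Nfam1 at 2.24, Tnip1 at 2.32 and Parvb at 2.39, where the median over all starts was 9.88. Their H3K27Ac went from 10 to 44, from 10 to 86 and from 6 to 80 tags.

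Ctsz, a carboxypeptidase of the cysteine group (chr2:174252994-174264540, minus strand), had 443, 828, 1156, 1339 and 724 H3K27Ac tags at its start. It was the only one of the 8 starts that passed the 2-fold line at 12 and 24 hpi, where 3.34% and 4.61% of all starts did, and was back under it at 48 hpi, with a log2 change of 0.71 (0.54 to 0.88). When libraries were scaled by the windows enriched at all 5 times the change was 1.07, past the line, so this return depends on the scaling. H3K4Me1 ended lower, with 126, 156, 146, 97 and 94 tags and a change of -0.42 (-0.82 to -0.03), which turned to 0.16 when libraries were scaled by windows enriched at no time. In the central 1 kb it went from 22 to 7 tags, a change of -1.65 (-3.12 to -0.37) that was called lower.

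Ctsc, dipeptidyl peptidase I, which activates the serine proteases of granules (chr7:95426595-95459398, plus strand), had the highest start at 0 hpi, with 768 H3K27Ac tags. Its values at the later times were 1195, 1036, 1188 and 863, so that all of them lay above 0 hpi, and the log2 change to 48 hpi was 0.17 (0.03 to 0.31). In the central 1 kb the direction turned, with 307, 490, 299, 305 and 205 tags and a change of -0.58 (-0.84 to -0.32), and in 6 kb the change was 0.59. H3K4Me1 there, with 31, 66, 47, 37 and 27 tags, was the lowest of the 6 marked starts at 0 and at 48 hpi.

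Ctsa, Ctsb and Ctss shared a course with little net change in 3 kb. Ctsa (chr2:164658373-164666532, plus strand) had 367, 427, 443, 556 and 305 H3K27Ac tags, in a window that also holds the start of Neurl2. Ctsb, a protease of wide specificity (chr14:63741302-63764758, plus strand), had 418, 434, 573, 669 and 340. Ctss, the protease that cleaves the invariant chain of MHC class II (chr3:95330708-95360325, plus strand), had 232, 284, 295, 335 and 199.

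In these 3 genes H3K27Ac rose to 24 hpi and was lower at 48 hpi than at 0 hpi, by log2 changes of -0.27 (-0.49 to -0.04) at Ctsa, -0.30 (-0.51 to -0.09) at Ctsb and -0.22 (-0.50 to 0.06) at Ctss, the last within counting error. The width of the window mattered here too. In the central 1 kb the changes were -0.76 (-1.14 to -0.38), -0.64 (-0.98 to -0.31) and -0.10 (-0.44 to 0.24), and in 6 kb they turned to 0.11, 0.09 and 0.02, all within counting error. The changes in 3 kb were close to the median of all starts, and they turned to 0.10, 0.06 and 0.14 when libraries were scaled by the windows enriched at all 5 times, a scaling that moved the median of all starts from -0.25 to 0.11. Of the 8 starts, 5 had their highest H3K27Ac value at 24 hpi, and 6 were higher at 24 than at 48 hpi by more than counting error. Among these 6, the log2 difference was 0.24 (0.11 to 0.38) at Ctsd. The scaling by windows enriched at all 5 times multiplies the 24 hpi library by 1.01 and that of 48 hpi by 1.29. These counts were not repeated under it and may be smaller there. The same counts were not made over all starts, whose median log2 change from 0 hpi was 0.02 at 24 hpi and -0.25 at 48 hpi. The part of the 24 hpi library, which had the largest share of tags in enriched windows, in that pattern was not tested.

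Ctsh, an aminopeptidase (chr9:89948990-89970927, plus strand), had no mark at its annotated start. H3K27Ac was 4, 9, 7, 2 and 1 tags and H3K4Me1 was 8, 7, 4, 11 and 9, all below the genome mean, while H3K27Me3 was 27, 30, 16, 26 and 17 tags. None of these values reached enrichment, and no change at this start could be read at this depth. Whether the annotated start is the one these cells use was not tested.

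H3K27Me3 was enriched at 0 of the 8 starts at 0 hpi and at 0 at 48 hpi, where 16.2% and 18.4% of all starts were, and in between it passed the threshold at 24 hpi at Ctsk. Ctsa was called higher in it, from 8 to 21 tags, 1 of 8 where 1.6% of all starts were called, and 0 were called lower, where 1.59% were. The Ctsa value had an interval of 0.16 to 2.78 in log2 and stayed under the enrichment threshold. It was not called in 6 kb or 1 kb, at a fold minimum of 3, with at least 50 tags, or scaled by windows enriched at all times.

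**Figure D2:**
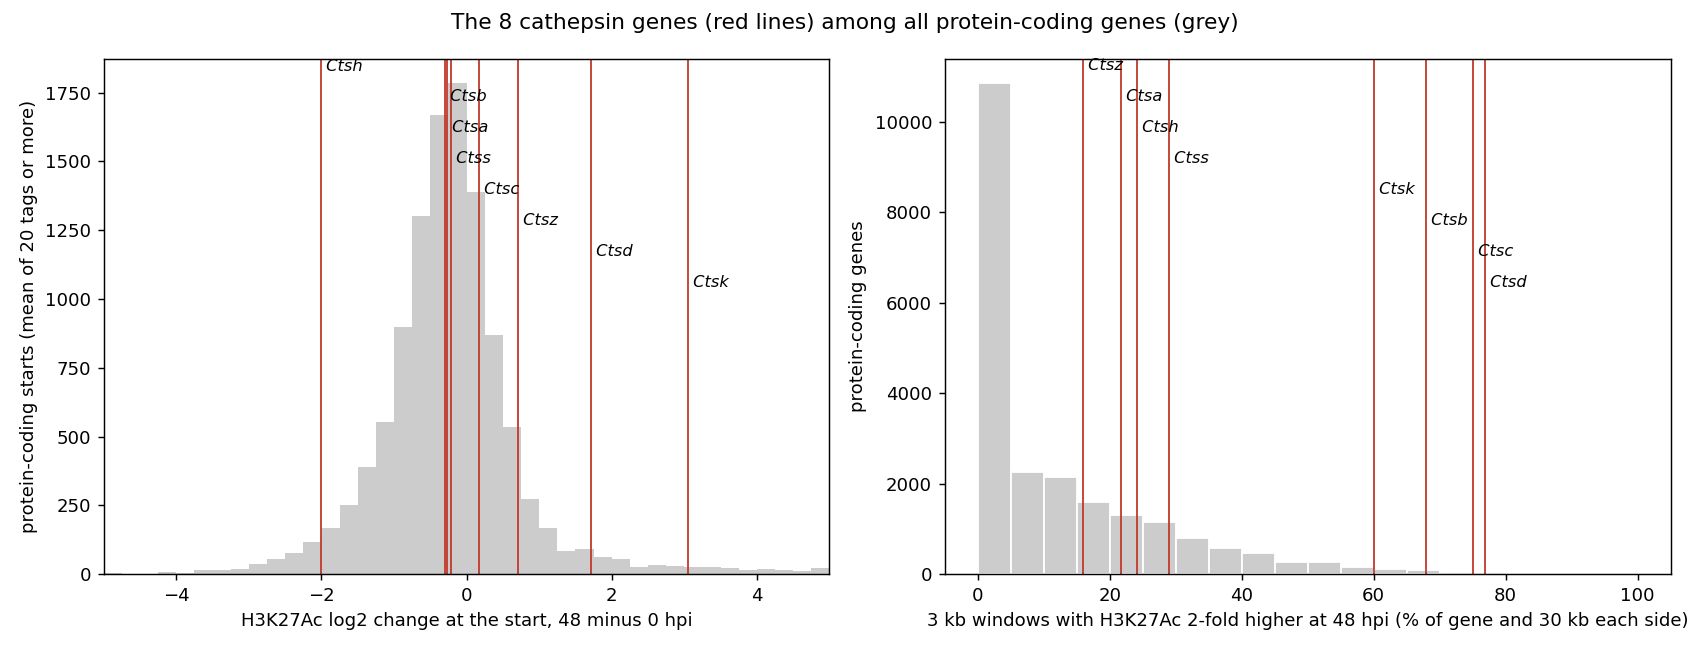
Left, log2 change in H3K27Ac from 0 to 48 hpi at 11212 protein-coding starts (grey bars) with the 8 cathepsin genes as red lines, from -2.0 at Ctsh (which has under 20 tags on average) to 3.05 at Ctsk. Right, share of the 3 kb windows of a fixed genome grid over each gene and its flanks with H3K27Ac at least 2-fold higher at 48 hpi over 22203 protein-coding genes, where Ctsk, Ctsb, Ctsc and Ctsd lie at 60.0% or more.

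The second question was where in and around these genes the marks changed. The windows counted next include the 8 start windows. Of the 220 windows, 102, or 46.4%, had gained at least 2-fold in H3K27Ac by 48 hpi and 2 had lost as much, where 6.38% and 2.67% of all windows of the genome were called. Of the 102 windows, 100 did not hold the member's own start, a count largely set by the tiling. Only 8 of the 220 windows are start windows, and 2 of these 8 were called higher. Among the windows over all protein-coding genes and their 30 kb flanks, 9.51% were called higher in H3K27Ac and 7.32% in H3K4Me1. H3K4Me1 was higher in 87 windows, or 39.5%, and lower in 3, against 5.15% and 3.02% of the genome. In 74 of the 102 windows both marks were higher, and the matching share over the genome was not counted.

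The gain built up over time. In order of time, the 4 libraries after 0 hpi had 29, 65, 84 and 102 windows at least 2-fold above it in H3K27Ac, where 1.94%, 3.42% and 4.05% of all windows of the genome were called in the first 3 of these libraries. In H3K4Me1 they had 9, 55, 77 and 87 windows, with 0.669%, 2.52% and 4.11% of the genome in the first 3. Windows at least 2-fold below 0 hpi in H3K27Ac numbered 11, 2, 7 and 2, and the genome share of such calls was counted at 48 hpi only. The Ctsb windows at -12 and -9 kb had 291, 53, 73, 54 and 162 tags and 249, 36, 64, 68 and 155 tags. Over all 220 windows H3K27Ac went from 11028 tags to 12807, 21857, 31703 and 28885, which was 2.62-fold at 48 hpi. When both 24 and 48 hpi had to be at least 2-fold above both 0 and 3 hpi, a setting chosen after seeing the data, 50 windows were called, or 22.7%, where 2.3% of all windows were.

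The windows were not spread evenly over the genes. Ctsb, Ctsc, Ctsd and Ctsk held 77 of the raised windows in 112, and Ctsa, Ctsh, Ctss and Ctsz held 25 in 108. By gene, the raised windows were 19 of 27 at Ctsd, 26 of 32 at Ctsc, 21 of 29 at Ctsb, 11 of 24 at Ctsk, 9 of 31 at Ctss, 6 of 28 at Ctsh, 5 of 24 at Ctsa and 5 of 25 at Ctsz. On a fixed grid over 22203 protein-coding genes with the same flanks, the share of raised windows had a median of 5.88% per gene. Ctsd stood at 76.9%, above 99.7% of genes, Ctsc at 75%, above 99.6%, Ctsb at 67.9%, above 99.2%, and Ctsk at 60.0%, above 98.5%. At Ctsk the grid gave 15 of 25 windows and the windows tiled from the start 11 of 24, or 45.8%, so its share depended on their placement. Several of the raised Ctsk windows lie in the neighbouring gene Arnt, and which gene they belong to cannot be told from these data. Ctss at 29.0%, Ctsh at 24.1%, Ctsa at 21.7% and Ctsz at 16.0% lay above 86.2%, 81.5%, 78.1% and 69.9% of genes, and among the 11212 genes whose start had a mean of at least 20 H3K27Ac tags, with a median of 15%, Ctsz was near the middle, above 51.6%.

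**Figure D3:**
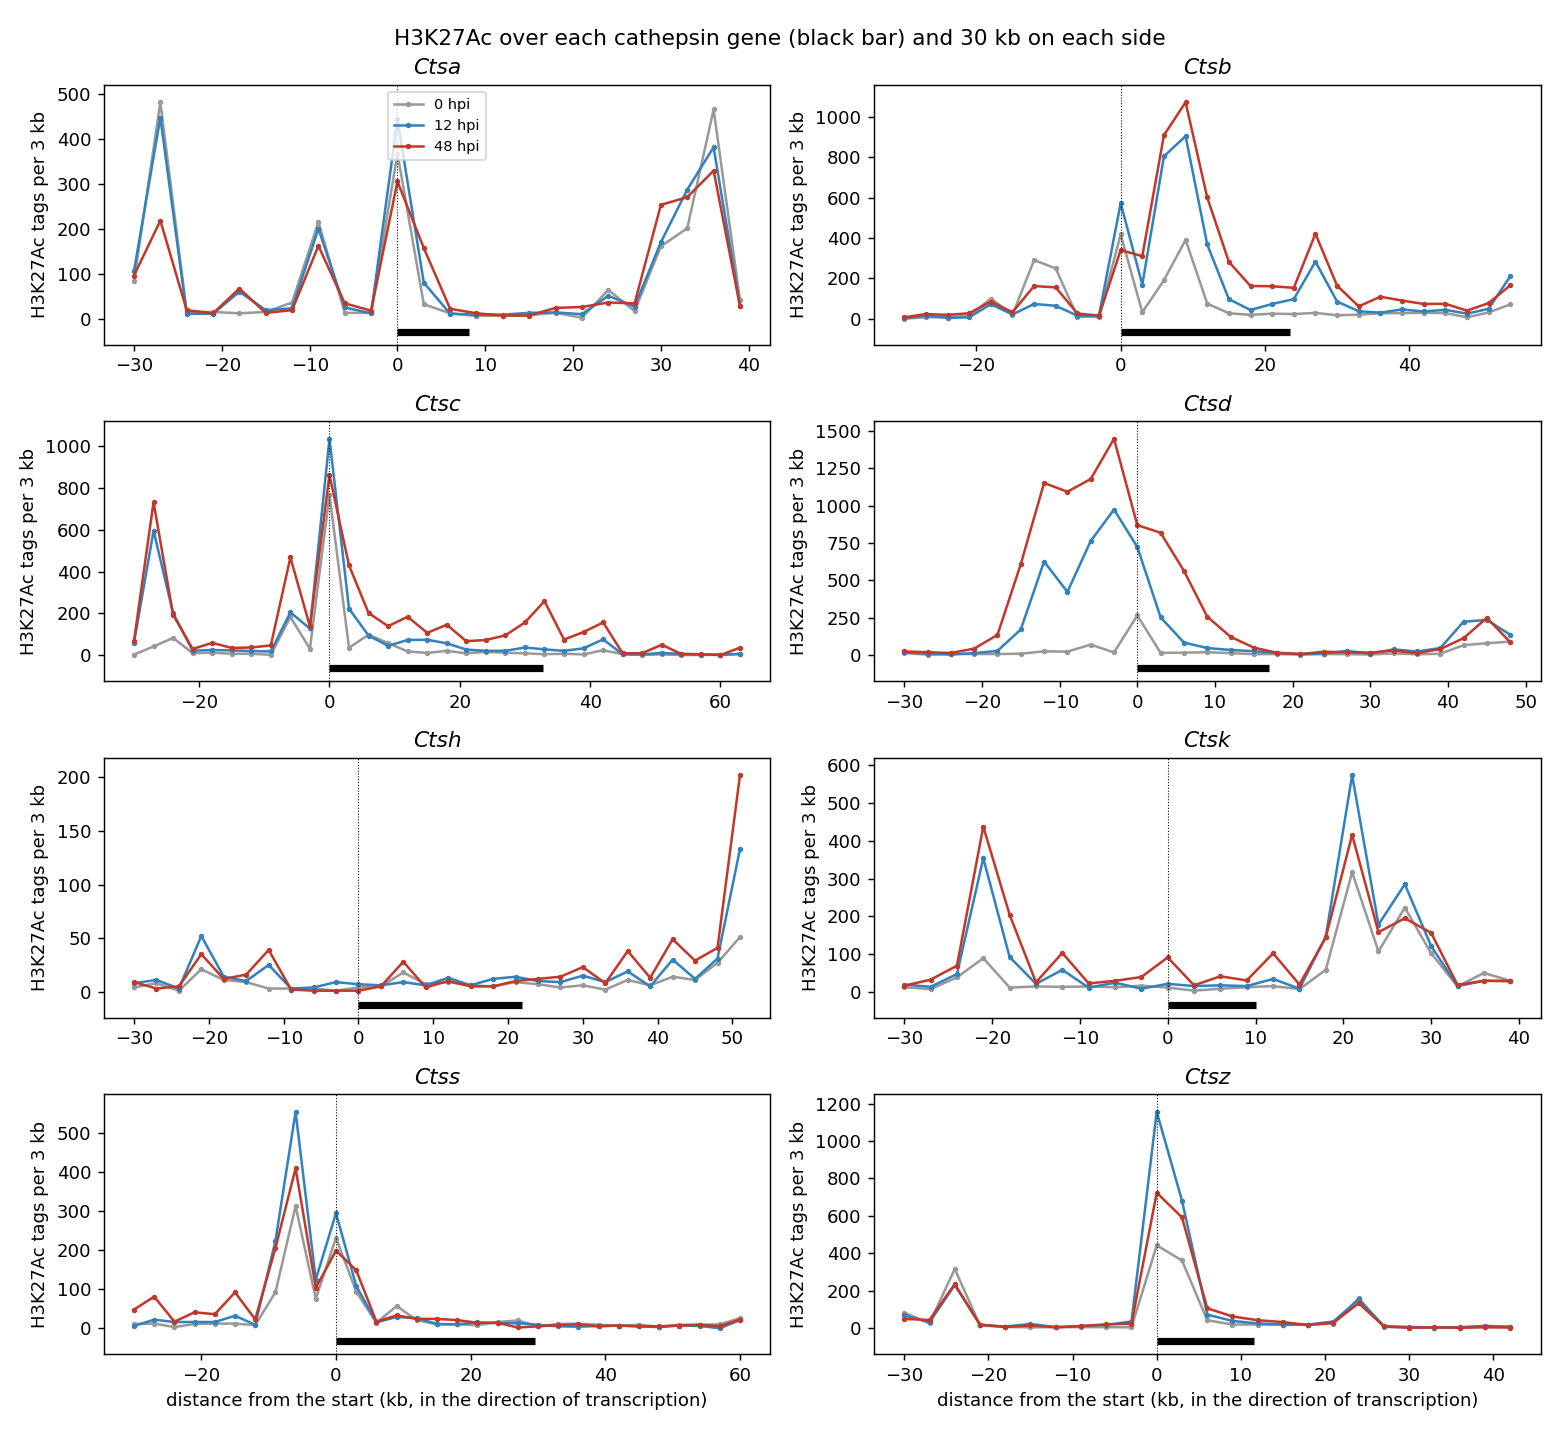
H3K27Ac tags per 3 kb window over each gene (black bar) and 30 kb on each side, by distance from the start in the direction of transcription, at 0 (grey), 12 (blue) and 48 hpi (red), each point 1 library. At Ctsd and Ctsc the tags rise on both sides of the start, at Ctsb over the gene body and beyond it, and at Ctsk in windows before the gene, where 89 tags became 438.

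At Ctsd, 13 of the 19 raised windows formed an unbroken stretch of 39 kb, from 22.5 kb before the start to 16.5 kb after it, and the other 6 held 20 to 250 tags at 48 hpi. Summed over it, H3K27Ac was 506, 577, 4171, 7765 and 8338 tags, a 16.5-fold rise, and H3K4Me1 was 523, 546, 2444, 2687 and 2411, a 4.61-fold rise. Of the H3K27Ac change to 48 hpi, 0.907%, 46.8% and 92.7% were present at 3, 12 and 24 hpi, whereas H3K4Me1 had reached its level of 48 hpi by 12 hpi. In each gene the window away from the start that added the most H3K27Ac tags is described, which need not be the one with the largest fold. At Ctsd this was the window at -3 kb (chr7:149575443-149578442), with 19, 44, 973, 1572 and 1446 tags, a log2 change of 6.25 (5.60 to 6.99). In that window H3K4Me1 was 70, 98, 464, 364 and 200 tags and so passed its highest value before 48 hpi.

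**Figure D4:**
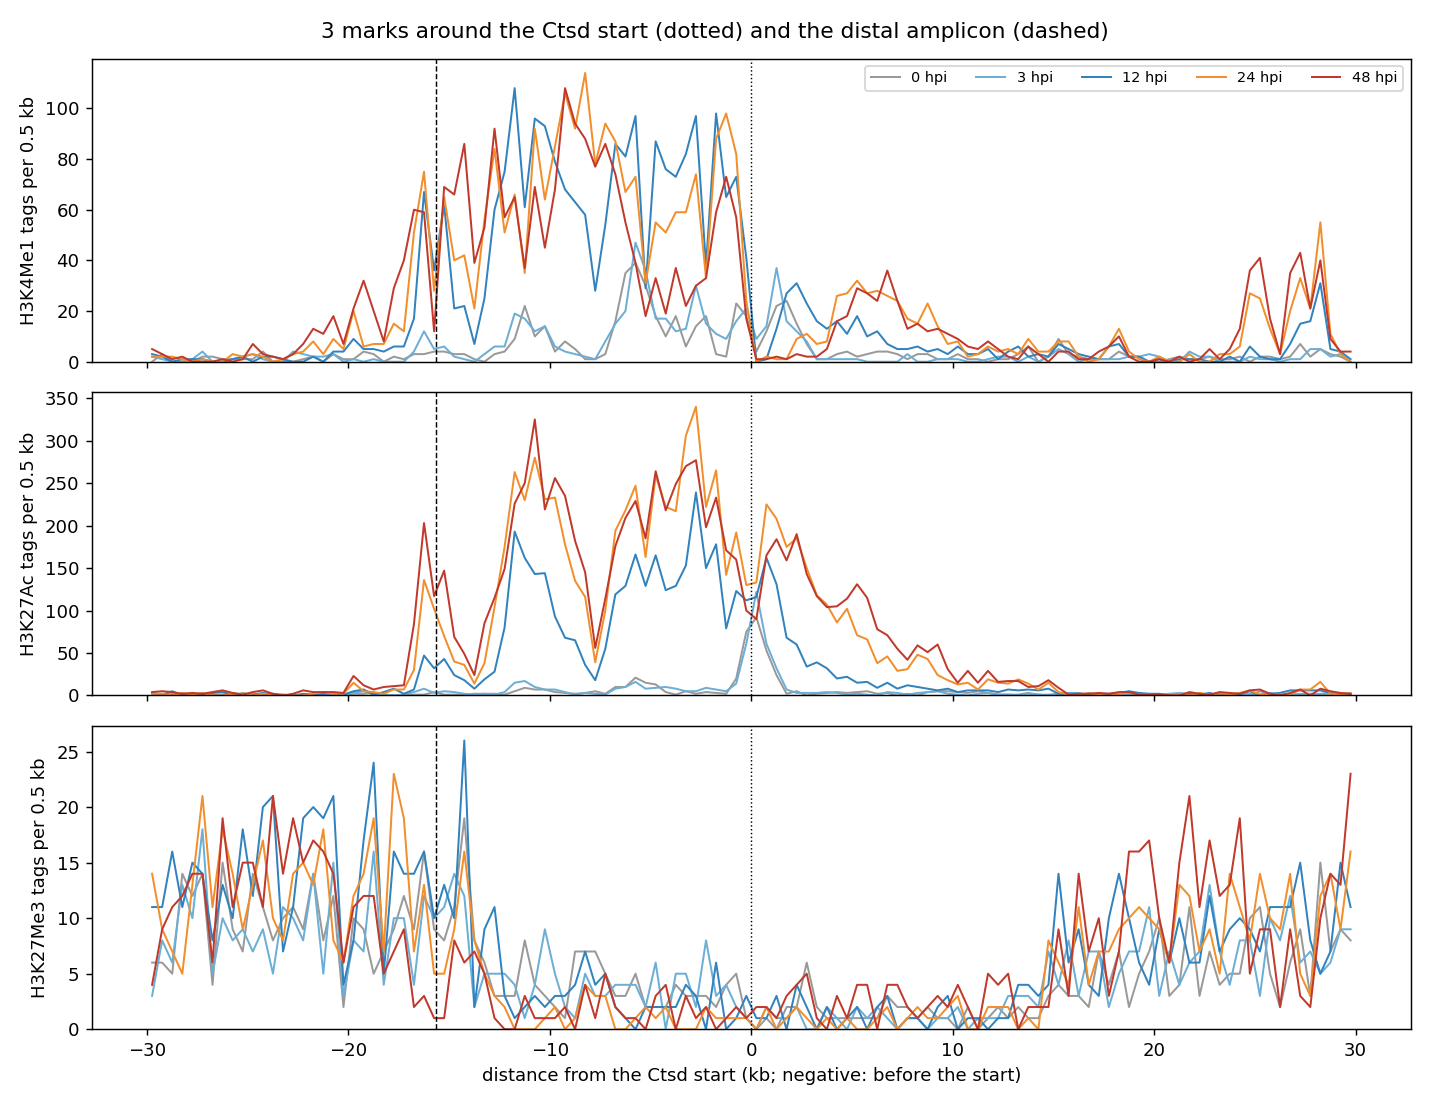
Tags per 0.5 kb of H3K4Me1 (top), H3K27Ac (middle) and H3K27Me3 (bottom) within 30 kb of the Ctsd start (dotted line), by time, with the amplicon 15.7 kb before the start as a dashed line. By 48 hpi H3K27Ac covers the stretch from 22.5 kb before to 16.5 kb after the start, of which the ends at -21, -18 and 15 kb had 14, 29 and 27 tags per 3 kb at 12 hpi, under the enrichment threshold, and H3K27Me3 at 48 hpi is enriched beyond it and also within it at -21 and -18 kb, with 79 and 47 tags.

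The distal Ctsd element, read in 3 kb around the amplicon (chr7:149588113-149591112), had 9, 26, 163, 410 and 659 H3K27Ac tags. The value grew at each later time, and its log2 change was 1.53 (0.39 to 2.81) at 3 hpi and 6.19 (5.26 to 7.33) at 48 hpi. The 26 tags of 3 hpi were under the enrichment threshold of 34. In the central 1 kb H3K27Ac was 4, 8, 93, 233 and 300 tags, and the log2 change at 3 hpi was 1.0 (-0.9 to 3.18), within counting error. H3K4Me1 in 3 kb was 20, 29, 220, 285 and 345 tags and also grew at each time, to a log2 change of 4.11 (3.46 to 4.84). In the central 1 kb H3K4Me1 was highest at 12 hpi, with 6, 16, 105, 99 and 77 tags. H3K27Me3 was 67, 64, 83, 58 and 20 tags, enriched up to 24 hpi and no longer at 48 hpi, a log2 change of -1.74 (-2.54 to -1.01).

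At finer scale the acetylation beside the amplicon formed 2 peaks with a dip between them. These were not the highest within 5 kb of the amplicon middle. The highest H3K27Ac bin lay 3.88 kb toward the gene at 12 and 24 hpi, with 108 and 159 tags. At 48 hpi it lay 4.62 kb toward the gene, with 165 tags. At 48 hpi the 250-base bins centred 375 and 125 bases before the amplicon middle held 128 and 61 H3K27Ac tags, the bin centred 125 bases after it held 23, and the next held 89. The dip was also present at 12 and 24 hpi, where that bin held 6 and 22 tags between higher neighbours. H3K4Me1 had its dip at the same place, with 4 and 7 tags at 48 hpi in the bins on either side of the amplicon middle and 28 and 38 in the next bins outward. The deposited tags carry no strand and were not moved to the middle of their fragments, so the place of the dip is blurred at this scale.

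**Figure D5:**
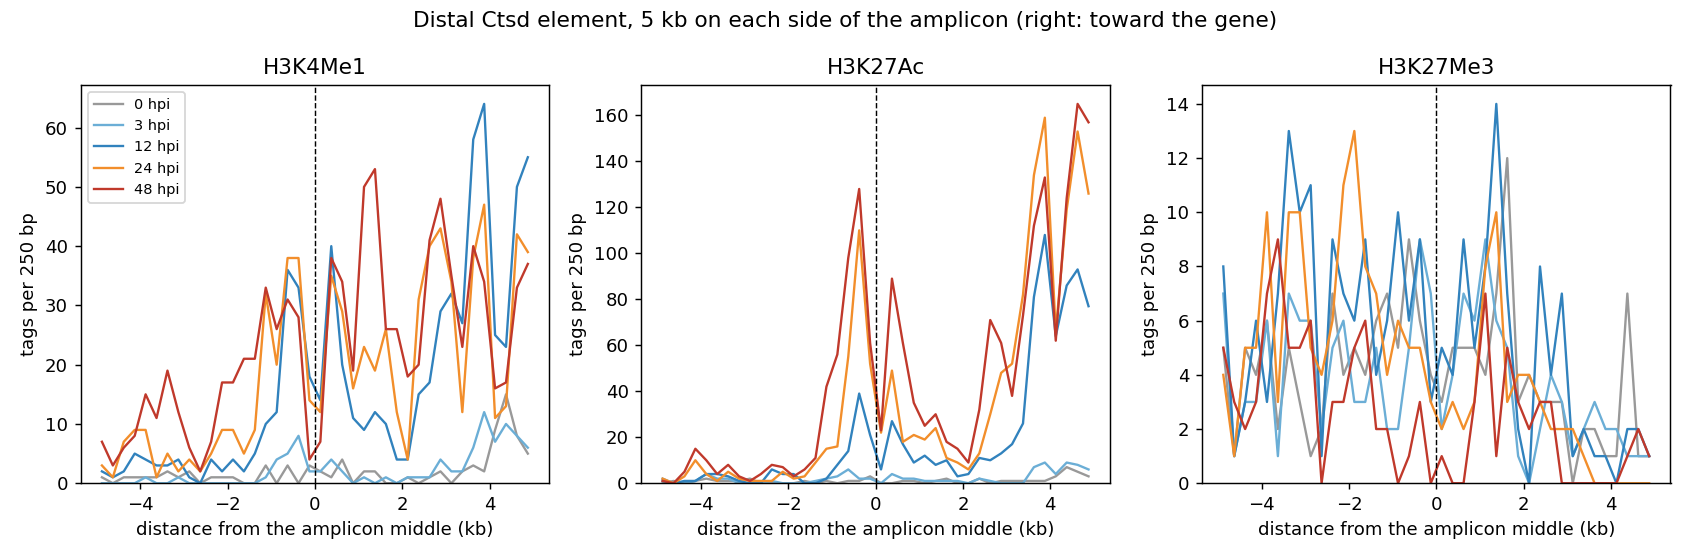
Tags per 250 bases within 5 kb of the middle of the Ctsd amplicon (dashed line), with the gene to the right, for the 3 marks at 5 times, each line 1 library. H3K27Ac and H3K4Me1 form peaks on each side of the line from 12 hpi, with 128 and 89 H3K27Ac tags at 48 hpi on the 2 sides of a bin of 23. The highest bins at 48 hpi lie further to the right, with 165 H3K27Ac tags at 4.62 kb and 53 H3K4Me1 tags at 1.38 kb.

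H3K27Me3 was also read over these windows. Of the 220 cathepsin windows, 3, or 1.36%, were at least 2-fold lower in it and 7, or 3.18%, higher, where 1.88% and 1.46% of the genome were called. The share of higher windows depended on the processing. With all distinct positions kept it was 1.36%, against 0.879% of the genome. Scaled by windows enriched at all times it was 0.455%, against 0.628%. All 3 lower windows were at Ctsd. The window at -15 kb had 71, 61, 77, 56 and 26 tags, a log2 change of -1.45 (-2.16 to -0.78), and the windows at -12 kb and -9 kb went from 27 to 10 and from 27 to 9. Of these 3, only the window at -15 kb was enriched in H3K27Me3 at 0 hpi. H3K27Ac rose in them by 5.93, 5.47 and 5.51 in log2. It also rose by 6.25 and 5.68 in the Ctsd windows at -3 and 3 kb. There H3K27Me3 went from 17 to 10 and from 14 to 16 tags. These values were under the 20 tags that a call needs, so no change in it could be called there. Of the 7 higher windows, 4 were after the start, from 15 to 30 kb, in introns of 6330512M04Rik, and the middle of the first of them also lies in an intron of Ctsd. There the window at 21 kb had 38, 38, 41, 57 and 80 tags and that at 30 kb had 39, 46, 62, 80 and 88. The remaining 3, at the Ctsa start, at 9 kb in Ctsb and at -18 kb of Ctsz, had 20 to 35 tags at 48 hpi.

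At Ctsb the raised stretch ran from 1.5 kb to 55.5 kb after the start, over the whole gene body and on through the neighbour Fdft1, which encodes squalene synthase. The last tiled window was itself raised, so the stretch was cut off by the tiling and its end was not seen. Over these 54 kb H3K27Ac was 1070, 1845, 3402, 5070 and 4926 tags, a 4.6-fold rise, and H3K4Me1 rose 2.1-fold. The most tags were added in the window at 6 kb in an intron (chr14:63745802-63748801), with 191, 387, 805, 1140 and 910 tags, a log2 change of 2.25 (2.03 to 2.48), and the largest log2 change, 3.86 (3.32 to 4.46), was in an intron of Fdft1 at 27 kb, from 29 to 421 tags. The window at 6 kb was enriched in both active marks at 0 hpi already. Which of the 2 genes the windows over Fdft1 belong to cannot be told from these data.

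At Ctsc the windows on both sides of the start passed the 2-fold line and the start did not. The 30 kb before the start went from 380 to 488, 1298, 1845 and 1810 tags, in a stretch that was cut off by the tiling. The 42 kb from 1.5 to 43.5 kb after the start went from 328 to 782, 830, 1628 and 2202. The first had 7.55% of its change at 3 hpi and 64.2% at 12 hpi, and the second had 24.2% and 26.8%. The second was thus ahead at 3 hpi and the first at 12 hpi. The second stretch runs past the end of the gene, which is 32.8 kb long. The window at -27 kb (chr7:95398095-95401094, between genes) added the most tags, with 42, 102, 596, 837 and 733, a log2 change of 4.13 (3.68 to 4.61). The largest log2 change, 5.69 (4.45 to 7.33), was in the window at 33 kb, from 5 to 259 tags. In the first intron window, at 3 kb, H3K27Ac rose from 36 to 430 tags and H3K4Me1 was lower, at 56, 52, 32, 10 and 10, one of the 3 windows called lower in that mark.

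Ctsk and Ctss are neighbours, with starts 27500 bases apart, and 15 windows of each overlap windows of the other. Of their raised windows, 6 of 11 at Ctsk and 7 of 9 at Ctss are among these, so they are not separate observations. Among the raised stretches of 2 or more windows, the one with the largest share of its change at 3 hpi lay before Ctsk, in introns of its neighbour Arnt. There the 2 windows from -22.5 to -16.5 kb had 100, 553, 446, 734 and 642 H3K27Ac tags, with 83.6% of the change present at 3 hpi. The window at -21 kb (chr3:95280708-95283707) added the most tags, from 89 to 438, a log2 change of 2.30 (1.97 to 2.64), and that at -18 kb had the larger log2 change, 4.21 (3.34 to 5.24), from 11 to 204 tags. H3K4Me1 over these 2 windows grew more evenly, with 105, 254, 338, 345 and 442 tags. The Ctsk start itself was at 9 tags at 3 hpi and 21 at 12 hpi.

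At Ctss the most tags were added in the window at -9 kb, between the 2 genes (chr3:95320208-95323207), with 92, 47, 223, 302 and 205 tags, a log2 change of 1.16 (0.79 to 1.53). The library of 3 hpi was the lowest there. The largest log2 change among the raised Ctss windows was 2.94 (2.07 to 3.94) at -15 kb, from 12 to 92 tags. The window at 27 kb in Ctss was called lower, from 20 to 2 tags, and the counts behind it were small.

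The other genes changed in few windows. At Ctsa the most tags were added in the window at 3 kb, in the gene, with 32, 29, 80, 182 and 157 tags, a log2 change of 2.29 (1.74 to 2.89), while the largest log2 change among raised windows, 3.70 (1.70 to 6.82) at 21 kb in an intron of Pltp, rested on 2 and 26 tags. The window at -27 kb fell from 481 to 218 tags, by 1.14 on the log2 scale, and it holds the starts of Acot8 and Zswim3, not of a cathepsin. At Ctsz the window at 3 kb had 362, 358, 682, 863 and 592 tags, a log2 change of 0.71 (0.52 to 0.90) that stayed under the 2-fold line, and the 5 windows that passed it held 21 to 107 tags at 48 hpi. At Ctsh the most tags were added 51 kb after the start, in an intron of Morf4l1, with 51, 71, 133, 219 and 202 tags and a log2 change of 1.99 (1.54 to 2.46). Nearer to Ctsh, the window at -12 kb went from 3 to 39 tags, the largest log2 change of the raised Ctsh windows, 3.70 (2.05 to 6.04).

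The third question was what state the windows had before they were acetylated. The number of the 220 windows enriched in H3K27Ac grew with each sampled time, from 51 through 62, 85 and 102 to 115. In the whole genome it also grew each time, from 52559 windows, or 6.32%, to 77151, or 9.28%. Of the 115 windows of 48 hpi, 46 had both active marks at 0 hpi, 15 had H3K4Me1 alone, 1 had H3K27Ac alone and 53 had neither. These were 40%, 13%, 0.87% and 46.1%, and over the 77151 windows of the genome enriched at 48 hpi they were 51.3%, 16.0%, 3.14% and 29.5%. Those with neither lay mostly at Ctsc, with 18, Ctsb, with 9, and Ctsd, with 8. In these 53 windows H3K4Me1 became enriched before H3K27Ac in 12, at the same sampled time in 27 and after it or not at all in 14, of which 4 were never enriched in H3K4Me1. These are 22.6%, 50.9% and 26.4%, and the same shares over 22781 such windows of the genome were 26.8%, 39.2% and 34.0%. The order was thus unresolved in 27 windows, and it depends on thresholds that were set for each mark.

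The genes around the cathepsin pathway were read from lists, at their starts and in H3K27Ac, where 4.68% of all starts were called higher and 8.22% lower. Of 6 other cathepsins, 1 was higher at 48 hpi and 0 lower. That one, Ctsw, a cathepsin of killer lymphocytes, went from 12 to 33 tags and stayed under the enrichment threshold. Ctse, Ctso and Ctsl, among those not called, went from 436 to 265, from 579 to 401 and from 24 to 39 tags. The median over these 6 was 0.0 in log2.

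Among 10 inhibitors of cathepsins and granule proteases, 1 was higher and 1 lower. Stfa3, a stefin, had 7, 27, 54, 93 and 110 tags, a log2 change of 3.97, in a family of near-identical copies among which short tags may be lost or split. Cst7, cystatin F, which holds Ctsc in check, had 692, 429, 440, 409 and 315 tags, a change of -1.14. Cst3 and Cstb, cystatins C and B, went from 510 to 592 and from 336 to 503 tags and were not called.

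Of 11 genes for processing and delivery to lysosomes, 1 was higher and 3 were lower. Lamp1, a lysosomal membrane protein, went from 197 to 449 tags, a log2 change of 1.19. Lgmn, the protease that trims cathepsin precursors, had 298, 200, 135, 173 and 104 tags and a change of -1.52. Gnptab, which makes the mannose 6-phosphate tag, went from 161 to 63, and Neu1, a glycosidase held in a complex with Ctsa, from 549 to 208. The median was -0.32, beside -0.25 for all starts with a mean of at least 20 tags, a minimum not asked of the listed genes.

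Of 4 symbols listed for transcriptional regulators, 2 were found, Tcfeb and Mitf, and both were called higher. Tfeb, the newer symbol of the Tcfeb gene, was listed beside it, and Tfe3 was not found under that symbol. Tcfeb, a master regulator of lysosomal genes, had 19, 55, 290, 346 and 203 tags, a log2 change of 3.42, with its highest value at 24 hpi. Mitf, a relative of it, went from 50 to 104 tags, with 126 at 3 hpi, and a change of 1.06, just past the 2-fold line.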

How the data were processed

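Histone-mark ChIP-seq was analysed from 15 libraries, 1 per mark and time. Per the labels, the authors mapped reads with Bowtie to mm9, and the deposited files hold 36-base tag positions (chromosome, start, end; no counts, scores or strand). No version, mapping filter or input control was used here. Each position was counted once, the largest libraries were thinned at random to the smallest of the mark, and tags were placed by their middle. Starts came from the GENCODE annotation of the same genome (the protein-coding transcript with the longest coding sequence). Counting and intervals used Python 3.11.15, numpy 2.4.6, pandas 2.3.3 and scipy 1.17.1, sequences samtools 1.23.1, and scripts were checked on simulated counts. Depth was 10913733 to 15338280 tags per library after thinning, and intervals cover counting error only.

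The 8 members and all gene lists were chosen with earlier results of these data known. Named windows were those with the most tags gained, and where called the most lost, in H3K27Ac at each gene, and the Ctsd element placed by the study's primers; further windows were named after their values were seen. Alternatives covered scaling, duplicate tags, window size and placement, fold and tag minimum.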

Additional observations from a re-analysis of the deposited data

How the results depend on the processing

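No paired analysis was possible because no replicate libraries were made, and for the same reason none could be left out. Under other scalings, duplicate rules, windows and limits, and 2 settings added after seeing the data, the count of raised windows in H3K27Ac lay between 50 and 124 of 220 (102 in the report) and that in H3K4Me1 between 59 and 115 (87), while counts of lower windows and of H3K27Me3, which were small, moved most. No called start changed its direction under an alternative.

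With all distinct positions kept, 3 windows were higher in H3K27Me3 (7 in the report), and with tags as deposited 3 were, and 1 was lower in H3K27Ac (2). A second random draw gave 5 windows lower in H3K27Me3 (3). Scaling by background windows gave 2 starts higher (1) and 1 window lower (3) in H3K4Me1. Scaling by windows enriched at all times gave 1 window lower in H3K27Ac, 0 starts and 1 window higher and 5 windows lower in H3K27Me3, and a median of 0.34 over the member starts (-0.03). In 6 kb that median was 0.35 and 0 starts were higher in H3K27Me3 (1). In 1 kb, 0 starts were higher in H3K27Ac (2), since the Ctsd change was 0.19 there and Ctsk had 19 tags, 0 were higher in H3K27Me3, and 1, Ctsz, was lower in H3K4Me1 (0). A grid shifted by 1.5 kb gave 9 windows lower in H3K4Me1 and 0 in H3K27Ac.

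At a fold minimum of 1.5, H3K4Me1 had 2 starts higher and 10 windows lower, H3K27Ac had 10 windows lower, and H3K27Me3 had 1 start lower (0), 17 windows higher and 8 lower. At a minimum of 3, 1 window was lower in each mark, and H3K27Me3 had 0 starts and 1 window higher. Without a tag minimum, 21 windows were lower in H3K4Me1, 7 windows and 1 start (0) in H3K27Ac and 15 windows in H3K27Me3, where 14 were higher. With at least 50 tags, 65 windows were higher in H3K27Ac and 3 in H3K27Me3, 1 was lower in each mark, and 0 starts were higher in H3K27Me3. Leaving out windows with the start of another gene gave 1 window lower in H3K27Ac, and asking both late times to exceed both early times gave 50 higher. The cause of these differences was not tested. The number of libraries, 1 per mark and time, limits every statement. Windows with under 20 tags in both libraries were not called in the main setting.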
